A study of Sus scrofa with 27 samples.

Results

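The genes described here produce, remove, sense and carry the nucleoside adenosine. They are 10 genes named by function, found by matching the pig Ensembl identifiers of the count files to the symbols NT5E, ENTPD1, ENTPD5, ADA, ADK, ADORA1, ADORA2A, ADORA2B, SLC29A1 and SLC29A2. All 10 were found among the 15623 identifiers with a symbol. Only 5 of them averaged at least 5 counts across the 27 libraries, the minimum for testing, and so belong to the 11384 genes tested. NT5E was chosen by its fold change between the diets, being among the genes with the greatest excess in restricted sows, so that difference is given as a description without a test.

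Mural granulosa cells (mural GCs), the innermost cell layers of the follicle wall, were cut out by laser capture microdissection from 1 follicle per sow, the largest healthy one, and sequenced with molecular tags that remove PCR copies. The 13 full-fed (FF) sows were given 6.5 kg of feed daily, the 14 restricted-fed (RES) sows 3.25 kg, over the last 2 weeks of lactation. All were wild-type Large White times Norwegian Landrace sows in their first parity, and ovaries were collected at day 2 post-weaning, after a time in which both groups were fed alike. The animals came from a larger trial, in which FF sows with little and RES sows with much weight loss were taken, most of each group being kept, so the sows of least contrast in weight loss are not represented. The study reports the largest healthy follicle as smaller in RES than in FF sows, so diet and follicle size cannot be told apart here. Each library is a separate sow.

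Extracellular ATP and ADP are cut to AMP by ENTPD1 (CD39), and AMP is cut to adenosine at the cell surface by NT5E (CD73). Adenosine then binds receptors of the ADORA family, which lower or raise cAMP in the cell, or crosses the membrane through the equilibrative transporters SLC29A1 and SLC29A2, and is turned into inosine by ADA or back into AMP by ADK. In the follicle, cAMP is the second messenger of the gonadotrophins, and adenosine is known to act on GCs and on the meiotic arrest of the oocyte.

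Total counts were 12299220 to 16021200 in FF and 12942198 to 18120922 in RES. A normalized count is the count of a gene after division by the DESeq2 size factor of its library. Fold changes are RES relative to FF from edgeR's quasi-likelihood test, adjusted over all 11384 genes, and genes with an adjusted p under 0.05 are termed called. By the share of high-quality bases in the study's read statistics, the libraries divide at a gap into an upper quality group of 7 FF and 7 RES and a lower quality group of 6 FF and 7 RES. In all genes, 2023 were called within the upper quality group and 1 within the lower. Granulosa markers summed to 71150 to 121900 normalized counts in FF and 76750 to 146800 in RES, and none of the 8 tested was called.

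NT5E lies on chromosome 1 of Sscrofa11.1 (chr1:54400786-54450743, plus strand), ENTPD1 on chromosome 14 (chr14:107263546-107390923, plus strand) and SLC29A1 on chromosome 7 (chr7:39217974-39234683, plus strand). Their promoters are shown because these are the 3 members with an unadjusted p under 0.05 or with the difference that chose the group. Each sequence runs from 250 bases before to 50 after the gene start that RefSeq gives on Sscrofa11.1. Capitals mark any of 5 motifs searched on both strands. They were the cAMP response element TGACGTCA, the E-box with the letters CACGTG, and the core of the hypoxia response element, which is the E-box without its first base. The others were the GC box with the letters GGGCGG and, for nuclear receptors of the NR5A kind, the half-site AAGGTCA.

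NT5E, chr1:54400536-54400835, plus strand: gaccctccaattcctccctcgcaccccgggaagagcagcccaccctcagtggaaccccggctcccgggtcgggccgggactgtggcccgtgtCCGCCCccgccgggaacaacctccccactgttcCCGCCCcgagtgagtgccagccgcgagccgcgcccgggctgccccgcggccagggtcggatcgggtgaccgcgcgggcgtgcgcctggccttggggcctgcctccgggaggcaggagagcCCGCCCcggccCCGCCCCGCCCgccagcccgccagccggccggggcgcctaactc

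ENTPD1, chr14:107263296-107263595, plus strand: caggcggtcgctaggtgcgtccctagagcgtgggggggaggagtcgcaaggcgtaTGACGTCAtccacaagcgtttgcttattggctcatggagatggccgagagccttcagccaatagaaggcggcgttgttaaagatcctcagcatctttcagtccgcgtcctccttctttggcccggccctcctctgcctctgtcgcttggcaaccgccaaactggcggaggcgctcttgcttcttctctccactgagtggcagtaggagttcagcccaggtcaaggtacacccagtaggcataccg

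SLC29A1, chr7:39217724-39218023, plus strand: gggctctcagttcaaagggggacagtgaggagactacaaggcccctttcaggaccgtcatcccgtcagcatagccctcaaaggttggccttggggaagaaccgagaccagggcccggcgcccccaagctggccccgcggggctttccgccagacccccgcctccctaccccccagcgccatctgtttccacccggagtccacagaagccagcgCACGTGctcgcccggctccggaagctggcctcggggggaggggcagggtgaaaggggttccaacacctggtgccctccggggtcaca

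The NT5E promoter held 5 GC boxes, all on the strand opposite to the gene, and its GC content was 78.7% against a median of 58.7% over 19558 promoters of protein-coding genes. GC boxes were common, being present in 50.6% of those promoters. The ENTPD1 promoter held 1 cAMP response element, a motif found in 2.25% of promoters, and none of the other 4 motifs. In SLC29A1 the only match was an E-box with the hypoxia response core inside it, present in 7.91% and 22.3% of promoters, respectively. The half-site, found in 3.78% of promoters, was in none of the 3 windows, which says only that these letters are not there.

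The members differed widely in level. Per kb of exon, ENTPD1 was the highest in both diets, with 210 ± 112 normalized counts for FF (SD, n = 13) against 141 ± 92.1 for RES (SD, n = 14). ENTPD5 followed with 143 ± 22.3 and 134 ± 26.2, and ADK with 85.8 ± 16 and 95.6 ± 19.9. The next were NT5E, with 15.3 ± 10.1 and 48.1 ± 35.9, and SLC29A1, with 12.8 ± 6.48 and 20.6 ± 6.53. ADA was at 2.80 and 2.84 on average, and ADORA2A, ADORA1, SLC29A2 and ADORA2B lay below 1 in this order.

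The order of mean levels per kb of exon was the same in FF and RES, but several neighbours in it did not separate. ENTPD1 exceeded ENTPD5 in 8 of 13 FF libraries and in 5 of 14 RES libraries. NT5E exceeded SLC29A1 in 5 of 13 FF libraries and in 11 of 14 RES libraries. ADK lay above NT5E in 13 of 13 FF libraries and in 13 of 14 RES libraries, and SLC29A1 above ADA in every library of both diets. With coding length in place of exon length, NT5E fell behind SLC29A1 in FF, and in RES ENTPD1 changed places with ENTPD5, and ADORA2A with ADORA1.

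**Figure D1:**
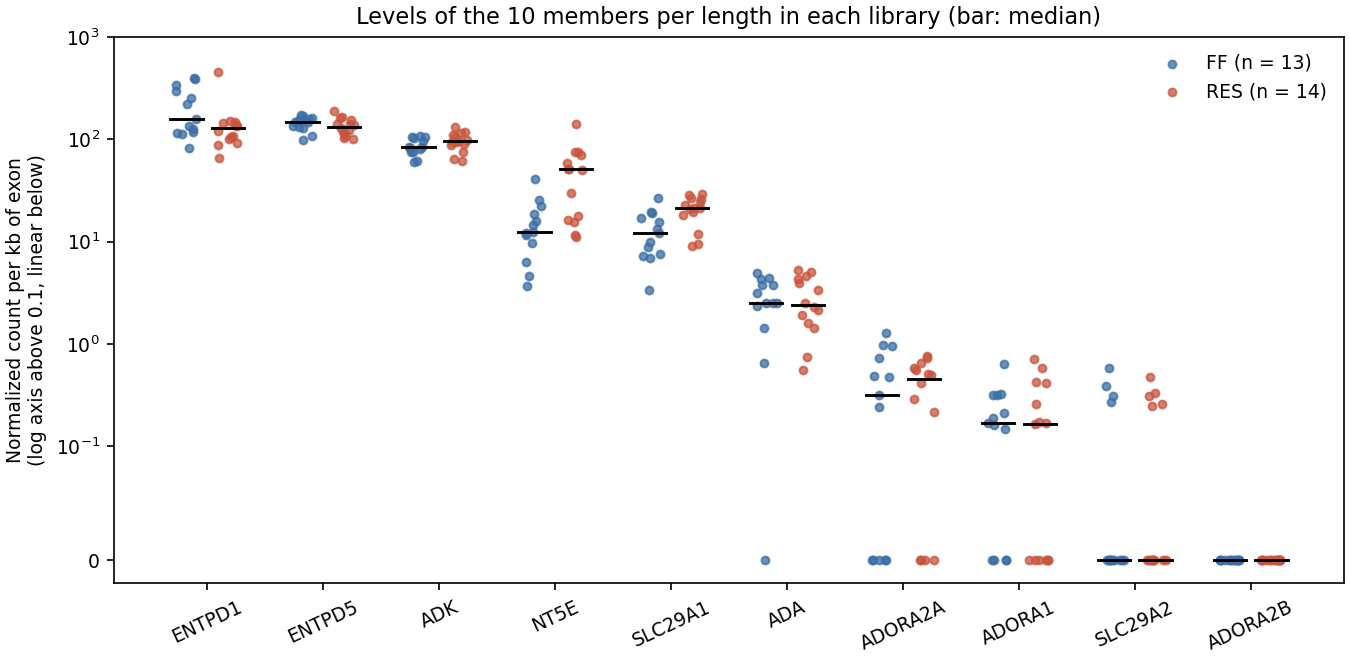
Normalized count per kb of exon (vertical axis, logarithmic above 0.1 and linear below) of the 10 members in each of 13 FF and 14 RES libraries, 1 point per library, with bars at the median. ENTPD1, ENTPD5 and ADK form the top of the order, NT5E and SLC29A1 the middle, and ADORA2B is at 0 in all 27 libraries.

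NT5E, the enzyme that makes adenosine from AMP, showed the greatest difference between the diets within the group. In FF GCs the lowest value was 15.1 normalized counts, the median 51.8 and the highest 169, and in RES GCs these were 45.9, 210 and 586. Means were 63.1 ± 41.6 for FF (SD, n = 13) against 199 ± 149 for RES (SD, n = 14). In RES, 12 of 14 sows exceeded the FF median and 8 were above the highest FF sow, FF sow 13, while 4 FF sows lay below every RES sow. The diets thus overlapped. RES sows 7, 10, 11, 13 and 14 had 45.9 to 73.6 normalized counts, RES sow 2 had 123, and the other 8 ranged from 207 in RES sow 3 to 586 in RES sow 12.

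The log2 fold change of NT5E was 1.61 (SE 0.38), and the ratio of the means was 3.16. Log2 fold changes here are edgeR fits with a library scaling of their own, so they differ somewhat from the ratio of the printed means. Only 7 of the 1610 genes called at an adjusted p under 0.05 had a greater log2 fold change, and these called genes were 14.1% of those tested, with 8.29% higher in RES and 5.85% lower. NT5E was higher in RES on average in both quality groups, whose libraries are those that chose it. In the upper quality group NT5E had 59.4 ± 22.9 normalized counts for FF (SD, n = 7) against 267 ± 177 for RES (SD, n = 7), with a fitted log2 fold change of 2.13 (SE 0.44). In the lower quality group it had 67.4 ± 59.1 (SD, n = 6) and 132 ± 77.9 (SD, n = 7), with a fitted log2 fold change of 0.91 (SE 0.51). The log2 fold change was 1.22 (SE 0.71) larger in the upper than in the lower quality group, which is given as a description, since the same values chose NT5E.

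NT5E also varied much within a diet. After removing the diet means, its SD on the log2 scale was 1.07, and only 148 of 9513 genes averaging at least 20 normalized counts (1.56%) varied more. The median SD of those genes was 0.33, close to the 0.30 of ADK and the 0.26 of ENTPD5. ENTPD1, with 0.70, and SLC29A1, with 0.67, were exceeded by 6.98% and 8.14% of the genes. Leaving out any 1 library moved the log2 fold change of NT5E between 1.38, without RES sow 12, and 1.83, without FF sow 13.

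**Figure D2:**
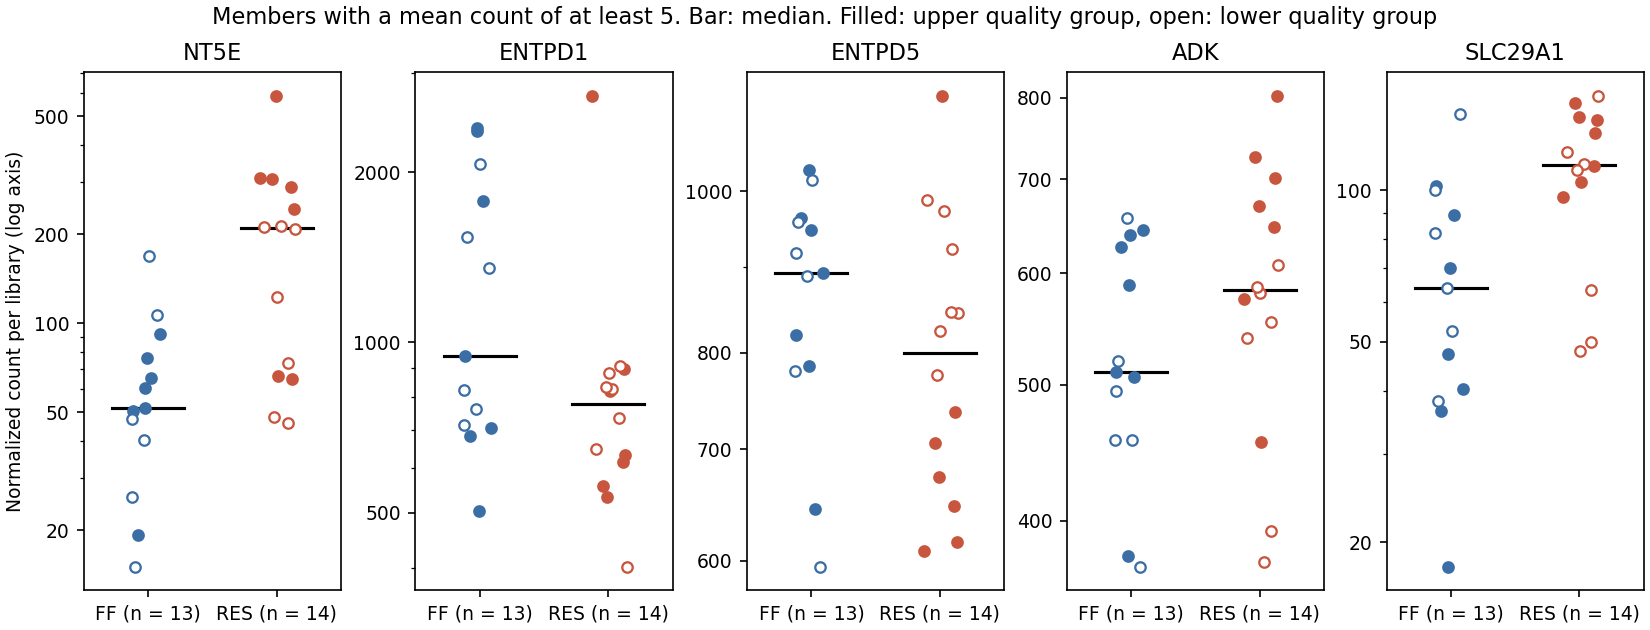
Normalized counts (vertical axes, logarithmic) of the 5 members with a mean count of at least 5, 1 point per sow, with a bar at the median, filled points for the upper and open points for the lower quality group. NT5E shows 8 RES sows above the highest FF value of 169 and the others within the FF range, and in ENTPD1 1 RES sow stands at 2729 above all other libraries.

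Neither of the other nucleotidases in the group was called. ENTPD1, which supplies AMP to NT5E by cutting ATP and ADP, ranged from 504 to 2389 normalized counts in FF, with a median of 948, and from 402 to 2729 in RES, with a median of 779. In 13 of 14 RES sows ENTPD1 was below the FF median, and the exception, RES sow 4, had the highest value of all 27 libraries. Means were 1279 ± 679 for FF (SD, n = 13) against 859 ± 560 for RES (SD, n = 14), with overlapping groups. The log2 fold change was -0.60 (SE 0.27, edgeR adjusted p = 0.134), so ENTPD1 was not called. Without RES sow 4 it was -0.89 (SE 0.22, edgeR adjusted p = 0.00901), and no other library left out gave a call. FF itself held a wide range, with 6 sows between 1354 and 2389 and 7 between 504 and 948.

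ENTPD5 is a nucleoside diphosphatase of the endoplasmic reticulum and does not share the extracellular site of ENTPD1. It is on the minus strand of chromosome 7 (chr7:97270698-97316578). In FF it ranged from 595 to 1030 normalized counts with a median of 894, and in RES from 608 to 1141 with a median of 800. The groups overlapped almost entirely, at 865 ± 134 (SD, n = 13) and 807 ± 158 (SD, n = 14), with a log2 fold change of -0.14 (SE 0.10, edgeR adjusted p = 0.365).

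Of the enzymes that remove adenosine, ADK, the kinase that returns it to AMP, was the abundant one. ADK (chr14:76836072-77320586, plus strand) ranged from 371 to 658 normalized counts in FF with a median of 511, and from 374 to 803 in RES with a median of 584. Means were 527 ± 97.9 (SD, n = 13) and 587 ± 122 (SD, n = 14), again overlapping, and the log2 fold change was 0.11 (SE 0.10, edgeR adjusted p = 0.507). ADA, the deaminase (chr17:47044492-47072232, minus strand), had 0 to 7 counts per library in FF and 1 to 10 in RES, with a median of 4 counts in both. Its means of 4.26 ± 2.27 and 4.32 ± 2.39 normalized counts differed by less than the spread between sows, and it fell just under the count minimum with a mean count of 4.41.

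The receptors were at or near the limit of detection. ADORA1 (chr9:113835279-113875899, plus strand), which lowers cAMP, had 14 counts over all FF libraries and 20 over all RES libraries, with at most 5 in one library and 0 in 4 FF and 6 RES libraries. ADORA2A (chr14:49467186-49485845, plus strand), which raises cAMP, had 21 and 22 counts in total, at most 4 in one library, and 0 in 5 FF and 4 RES libraries. Neither showed a difference between the diets that could be detected at this depth.

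ADORA2B (chr12:59431834-59449701, minus strand), the other receptor that raises cAMP, was at 0 in all 27 libraries. A count of 0 allows up to 3 counts, which is 0.166 to 0.244 CPM (counts scaled to the library total) in a single library and 0.00762 CPM over all 393592862 counts, for counting error only. In the RefSeq models, 1341 of the 1783 exon bases of ADORA2B overlap ZSWIM7 on the other strand, and 2007 of the 5946 exon bases of ADORA1 overlap MYBPH. Shorter stretches of NT5E (116 bases), SLC29A1 (143 bases) and ENTPD5 (230 bases) also overlap exons on the other strand. The counting command set no strand option, so read pairs from such stretches may have gone uncounted. ZSWIM7 was at 34.1 ± 16.2 normalized counts for FF (SD, n = 13) against 26 ± 7.48 for RES (SD, n = 14), and the part of the overlap in the 0 of ADORA2B was not tested.

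Of the transporters, SLC29A1 (ENT1) was present and SLC29A2 (ENT2) nearly absent. SLC29A1 ranged from 17.9 to 142 normalized counts in FF, with a median of 64.1, and from 47.9 to 154 in RES, with a median of 112. RES sows were above the FF median in 11 of 14 cases, 5 FF sows lay below every RES sow, and the diets overlapped. Means were 67.9 ± 34.3 (SD, n = 13) and 109 ± 34.6 (SD, n = 14), and the log2 fold change was 0.63 (SE 0.23, edgeR adjusted p = 0.0606), just short of a call. SLC29A2 (chr2:6027287-6036280, plus strand) had 5 counts over all FF and 6 over all RES libraries, and was at 0 in 9 libraries of each diet.

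The value for SLC29A1 lay so near the threshold that the setting decided the call. DESeq2's Wald test gave the same log2 fold change of 0.63 with an adjusted p of 0.0363, and leaving out FF sow 10, FF sow 11, RES sow 2, RES sow 7 or RES sow 14 brought the edgeR adjusted p to between 0.0143 and 0.0476. FF sow 10, without which the log2 fold change was 0.78 (edgeR adjusted p = 0.0143), has the lowest RNA integrity number in the study's table, though that row may belong to another sow. In the upper quality group SLC29A1 had 57.7 ± 30.5 normalized counts for FF (SD, n = 7) against 124 ± 20.1 for RES (SD, n = 7), with a fitted log2 fold change of 1.06 (SE 0.28, edgeR adjusted p = 0.0186). In the lower quality group it had 79.9 ± 37.4 (SD, n = 6) and 94.0 ± 40.6 (SD, n = 7), with a fitted log2 fold change of 0.17 (SE 0.32, edgeR adjusted p = 0.880). The difference between the quality groups was 0.88 (SE 0.44, edgeR adjusted p = 0.419 for the interaction).

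Counted together, 0 of the 4 tested members other than NT5E were called by edgeR, where 14.1% of all tested genes were. At an unadjusted p under 0.05 there were 2, SLC29A1 (p = 0.00977) and ENTPD1 (p = 0.0348), in opposite directions, and DESeq2 called 1, SLC29A1. Over all genes tested, 30.0% had an unadjusted p under 0.05 and DESeq2 called 17.0%. The median log2 fold change of the 4 was -0.01, beside -0.02 over all genes tested. With no count filter ADA, ADORA1, ADORA2A and SLC29A2 could be fitted, with log2 fold changes between -0.18 and 0.18 and SEs from 0.33 to 1.29, and none was called.

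Markers of other cells were measured beside these differences, since in bulk samples fewer cells of a type and less RNA per cell cannot be told apart. Of the endothelial markers, 4 of 9 tested were lower in RES (CDH5, CLDN5, EMCN and ESAM), where 5.85% of all tested genes were, and the list's summed level was 1317 to 2612 normalized counts in FF and 958 to 2649 in RES. Endothelium is known to carry NT5E and ENTPD1, and within a diet NT5E ran against the endothelial sum, with r = -0.55 in FF (permutation p = 0.0529, n = 13) and r = -0.53 in RES (permutation p = 0.0660, n = 14). Spearman's rho was -0.67 (permutation p = 0.0139) and -0.61 (permutation p = 0.0220). Without the 2 libraries farthest from the median of the sum r was -0.69 in FF and -0.53 in RES, and within the quality groups it lay between -0.67 and -0.42. ENTPD1 had r = -0.19 with that sum in FF (permutation p = 0.544, rho = -0.08) and r = -0.16 in RES (permutation p = 0.422, rho = 0.08). None of 80 such pairs of a member and a marker list passed adjustment, the 2 of NT5E having adjusted p of 0.326 and 0.327. The lowest p of the 80 was that of SLC29A1 with the stroma sum in RES sows, where r was -0.75 (permutation p = 0.00173, adjusted p = 0.138, n = 14) and rho = -0.64 (permutation p = 0.0166). That r was -0.67 without the 2 farthest libraries, -0.20 among the libraries of upper and -0.94 among those of lower quality, and in FF it was 0.56 (permutation p = 0.0474, adjusted p = 0.326, n = 13).

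Among the remaining lists, smooth muscle and pericyte markers had 2 of 8 lower in RES, theca markers 1 of 6 and erythroid markers 1 of 2, beside the same 5.85% of all genes. Immune, stroma and oocyte markers had 0 of 6, 0 of 7 and 0 of 1. The summed theca level was 1748 to 5758 normalized counts in FF and 890 to 4878 in RES, and the summed immune level 92.4 to 455 and 53.4 to 365. No marker with an identifier was at 0 throughout. The part of other cells in the member differences was not tested.

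Correlation with NT5E was examined within each diet, in 8 pairs, because pooling would carry the diet difference. In RES, SLC29A1 had r = 0.51 with NT5E (permutation p = 0.0602, adjusted p = 0.241, n = 14) and rho = 0.45 (permutation p = 0.109). Without the 2 libraries farthest from the NT5E median r was 0.40, and it was 0.34 and 0.67 within the upper and the lower quality group of RES. ENTPD5 had r = -0.51 (permutation p = 0.0589, adjusted p = 0.241, n = 14) and rho = -0.59 (permutation p = 0.0298, adjusted p = 0.238), and -0.48 without the 2 farthest libraries. The ENTPD5 relation held its sign in the upper quality group (r = -0.54) and not in the lower (r = 0.56).

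No pair passed adjustment in either diet, neither by Pearson's r nor by Spearman's rho, and 0 pairs by r and 1 by rho had an unadjusted p under 0.05. ADK had r = 0.40 with NT5E in RES (permutation p = 0.159) and -0.27 in FF (permutation p = 0.378). ENTPD1 had r = 0.02 in RES (permutation p = 0.954), where its rho was -0.48 (permutation p = 0.0840). In FF the other coefficients were 0.30 for ENTPD1, 0.15 for SLC29A1 and -0.04 for ENTPD5. The difference in r between the diets was tested for each of the 4 genes, and its permutation p was lowest for ADK (0.0742, adjusted p = 0.297).

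**Figure D3:**
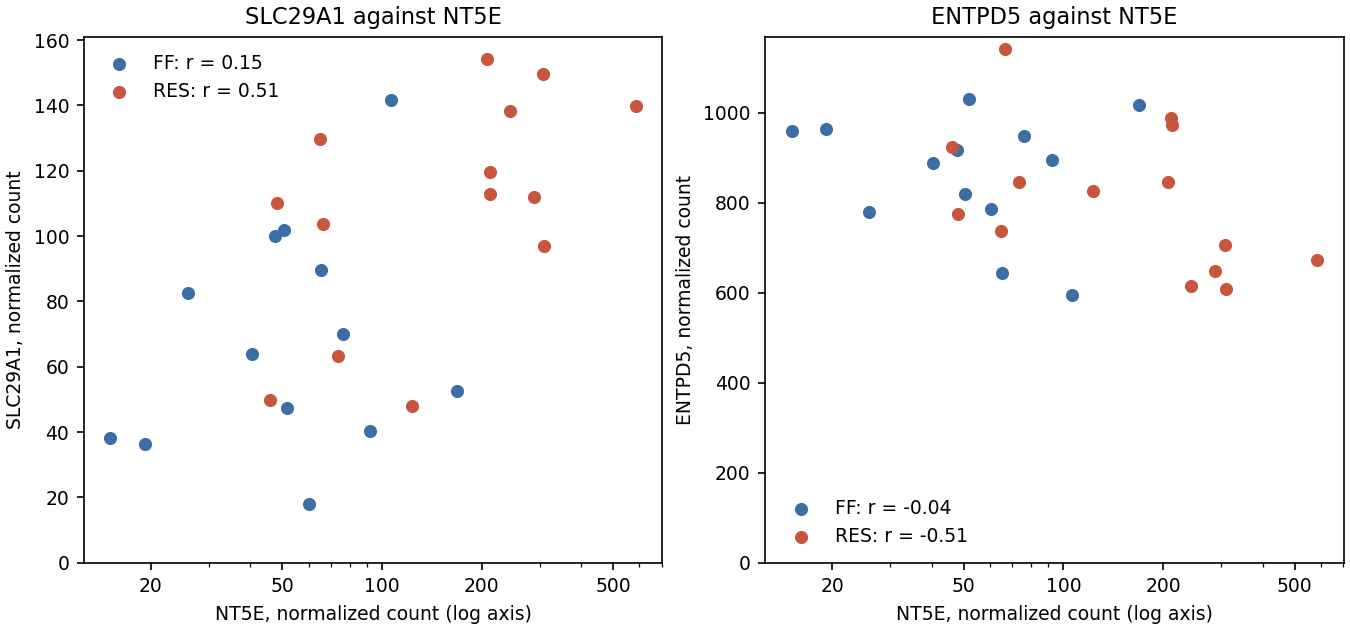
SLC29A1 (left) and ENTPD5 (right), in normalized counts, against NT5E in normalized counts (horizontal axis, logarithmic), 1 point per sow, blue for FF and red for RES, with Pearson's r on normalized counts in the legend. In RES the coefficients are 0.51 and -0.51, in FF 0.15 and -0.04, and none passed adjustment.

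The genes whose values followed NT5E most closely were sought across all 27 libraries after removing the diet means, on the log2(normalized count + 1) scale, among 9508 genes. The coefficients are descriptions, as the points share libraries, depth and cell makeup. The highest were PIK3AP1 (0.71), NEIL3 (0.70), PLA2G15, HMGXB4, CNR1, FMR1, MAOB, MTBP and EIF2AK2 (0.69 each) and FANCB (0.67), where the 99th percentile of all genes was 0.60. NEIL3, a DNA glycosylase, and FANCB, of the Fanconi anemia complex, work in DNA repair, CNR1 is a cannabinoid receptor, and MAOB is a monoamine oxidase. The lowest were SLC66A3 (-0.72), PM20D2 (-0.66), and LYPD6, TMEM87B and PIK3CB (-0.65 each).

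The likeness list was sensitive to how it was made. Only 1 of the 10 genes, MAOB, stayed among the 10 highest within RES alone, where its coefficient was 0.88, and 2 did within FF alone, while 7 stayed after the quality group was also removed. None of the other members came near it, with residual coefficients of 0.35 for SLC29A1, 0.14 for ADK, 0.02 for ENTPD1 and -0.39 for ENTPD5. Of the other purine genes, AHCY, which splits S-adenosylhomocysteine into adenosine and homocysteine, stood at 0.57, and its relative AHCYL2 at -0.63, beyond the first percentile of -0.57.

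CNR1 shares chromosome 1 with NT5E, on the minus strand, and its nearer end lies 2015.3 kb beyond that of NT5E, with 9 tested genes between. Its mean was 11.7 normalized counts in FF and 45.1 in RES, with a fitted log2 fold change of 1.92 (SE 0.50, edgeR adjusted p = 0.0114). The nearest tested neighbours of NT5E did not share its difference. SNX14, 9.9 kb downstream, had a log2 fold change of -0.07 (SE 0.09, edgeR adjusted p = 0.629), and SYNCRIP, 112.4 kb from the end of NT5E, one of 0.26 (SE 0.09, edgeR adjusted p = 0.0512). ZNF292 on the same side and CEP162, MRAP2 and RIMS1 before NT5E had log2 fold changes between -0.34 and 0.10, and none was called.

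SLC29A1 and ENTPD1 were then treated in the same way, a choice made after the data had been seen. SLC29A1 was most like E2F4 (0.90), LPIN2 (0.89), MCM2 (0.88), TLE5 (0.87), AARS2 (0.85), MCM4, MCM3 and FEN1 (0.84 each), and CTPS1 and RELA (0.83 each). MCM2, MCM3 and MCM4 are subunits of the replicative helicase, FEN1 is the nuclease that processes lagging-strand fragments, E2F4 is a cell cycle transcription factor and CTPS1 makes CTP. The coefficients of MCM2 with SLC29A1 were 0.90 within FF and 0.85 within RES, where 51 genes had a higher one. The lowest were BLTP1 (-0.85), FAM117B (-0.83), and TNKS, PPP1R9A and AGBL3 (-0.81 each).

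ENTPD1 was most like FHAD1 (0.86), FBXO32 (0.84), ATG7 and NELL2 (0.82 each) and SYTL4 (0.81), followed by B3GALNT1, MEIG1 and GLCCI1 (0.80 each), and MYZAP and MTHFD2L (0.79 each). FBXO32 is a ubiquitin ligase subunit known from muscle atrophy and ATG7 an enzyme of autophagy. Among the lowest were PIM2 and SEC23B (-0.80 each), and SEC13, EDEM1 and CCND2 (-0.79 each), SEC13 and SEC23B being coat proteins of vesicles leaving the endoplasmic reticulum. The 99th percentile was 0.74 for SLC29A1 and 0.67 for ENTPD1. Both lists changed with how they were made: of the 10 genes most like SLC29A1, 6 were shared within FF, 1 within RES, 3 on the count scale and 8 after the quality group was removed, and of those most like ENTPD1, 2, 3, 5 and 8.

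The wider purine pathway was read from 6 lists of 68 other genes, of which 62 had an identifier and 38 were tested. Of these 38, 2 rose and 6 fell, or 21.1% called against 14.1% of all genes tested, and their median log2 fold change was -0.07. The excess over all genes was not stable. Without FF sow 6 or RES sow 9 only 3 of the 38 were called (7.89%), beside 10.4% and 10.8% of all genes in the same fits. Without FF sow 8 or 14 or RES sow 1, 3, 6, 11 or 12 there were 4 (10.5%), beside 10.4% to 11.7% of all genes. The other ectonucleotidases, a list in which the cytosolic enzymes NT5C1A and NT5C1B also stand, had 0 of 6 tested genes called. ENPP1, which makes AMP from extracellular ATP and was the most abundant of that list, had 195 ± 37.6 normalized counts for FF (SD, n = 13) against 241 ± 112 for RES (SD, n = 14), with a log2 fold change of 0.25 (SE 0.18, edgeR adjusted p = 0.375).

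Among 7 tested intracellular nucleotidases and NTPDases, 1 rose and 1 fell, beside 8.29% of all genes called higher and 5.85% lower. NT5C, a cytosolic enzyme that dephosphorylates mainly deoxynucleoside monophosphates, ranged from 3.76 to 26.6 normalized counts in FF and from 6.99 to 71.8 in RES, with 12 of 14 RES sows above the FF median. Its log2 fold change was 0.97 (SE 0.31, edgeR adjusted p = 0.0321). NT5C2, which prefers IMP and GMP, had 492 ± 132 for FF (SD, n = 13) against 389 ± 72.1 for RES (SD, n = 14), with a fitted log2 fold change of -0.38 (SE 0.12, edgeR adjusted p = 0.0322). The most abundant of the list, ENTPD4, a Golgi enzyme, had a log2 fold change of -0.10 (SE 0.10, edgeR adjusted p = 0.542).

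Of 5 tested genes around adenosine and inosine clearance, 1 rose and 2 fell, where 8.29% of all genes were called higher and 5.85% lower. DPP4 (CD26), a surface peptidase that binds ADA, had the log2 fold change farthest from 0 among all 38, with values from 53.0 to 210 normalized counts in FF and from 10.6 to 145 in RES, with 13 of 14 RES sows below the FF median. Its log2 fold change was -1.44 (SE 0.29, edgeR adjusted p = 0.00194), and the call held in 27 of 27 fits that left out 1 library. AHCY rose, with means of 414 ± 96.6 (SD, n = 13) and 608 ± 224 (SD, n = 14) and a fitted log2 fold change of 0.50 (SE 0.16, edgeR adjusted p = 0.0340). AHCYL2 fell, with means of 343 ± 106 and 242 ± 62.2 and a fitted log2 fold change of -0.55 (SE 0.15, edgeR adjusted p = 0.0141). AHCYL1, the most abundant of the list, had 935 ± 73.8 and 1002 ± 112 normalized counts, with a fitted log2 fold change of 0.06 (SE 0.06, edgeR adjusted p = 0.530).

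AMP interconversion and salvage had 0 of 8 tested genes called, beside 14.1% of all genes tested. The most abundant was HPRT1 at 698 ± 157 for FF (SD, n = 13) against 824 ± 215 for RES (SD, n = 14), with a log2 fold change of 0.19 (SE 0.13, edgeR adjusted p = 0.312). Of the remaining adenosine receptor and transporter genes, only the concentrative transporter SLC28A2 was tested, at 13.7 ± 8.28 and 13.8 ± 11.0 normalized counts. Its log2 fold change was -0.01 (SE 0.35, edgeR adjusted p = 0.988).

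On the side of ATP release and ATP receptors, 3 of 11 tested genes fell and 0 rose, where 5.85% of all tested genes were called lower and 8.29% higher, and the median log2 fold change was -0.36. Marker lists of other cells lay on the same side, with medians of -0.54 for endothelial, -0.68 for immune and -0.40 for theca markers, and their part in the pathway differences was not tested. GJA1 (connexin 43), the main gap junction protein of GCs and a route for ATP release, ranged from 9913 to 46800 normalized counts in FF and from 9506 to 26740 in RES, and every one of the 14 RES sows was below the FF median. Its log2 fold change was -0.58 (SE 0.18, edgeR adjusted p = 0.0338). The ATP-gated channel P2RX4 fell, with means of 191 ± 35.0 (SD, n = 13) and 135 ± 38.8 (SD, n = 14) and a fitted log2 fold change of -0.55 (SE 0.13, edgeR adjusted p = 0.00519). P2RX7 fell, with means of 39.9 ± 8.96 and 24.1 ± 16.1 and a fitted log2 fold change of -0.77 (SE 0.26, edgeR adjusted p = 0.0424).

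These pathway calls were of unequal firmness. Leaving out each library in turn kept DPP4, P2RX4 and AHCYL2 called in 27 of 27 fits. The call was lost in 6 of 27 fits for NT5C2 (highest adjusted p 0.0723, without FF sow 6), 8 for NT5C (0.0696, without RES sow 3), 9 for GJA1 (0.0698, without FF sow 14), 10 for AHCY (0.0702, without RES sow 1) and 16 for P2RX7 (0.0736, without FF sow 8). Other settings ordered them differently. In the upper quality group P2RX7 was called (edgeR adjusted p = 0.00807), as were DPP4 (0.00637), P2RX4 (0.00975), AHCY (0.0108), GJA1 (0.0331) and NT5C (0.0332), and AHCYL2 (0.0913) and NT5C2 (0.107) were not. Within the lower quality group none of the 8 was called, where 1 of all 11384 tested genes was. Each had the same sign as in all libraries, but the 8 were picked by a fit that included these libraries. The fits that left out 1 library share most of those values too, so neither is separate evidence.

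**Figure D4:**
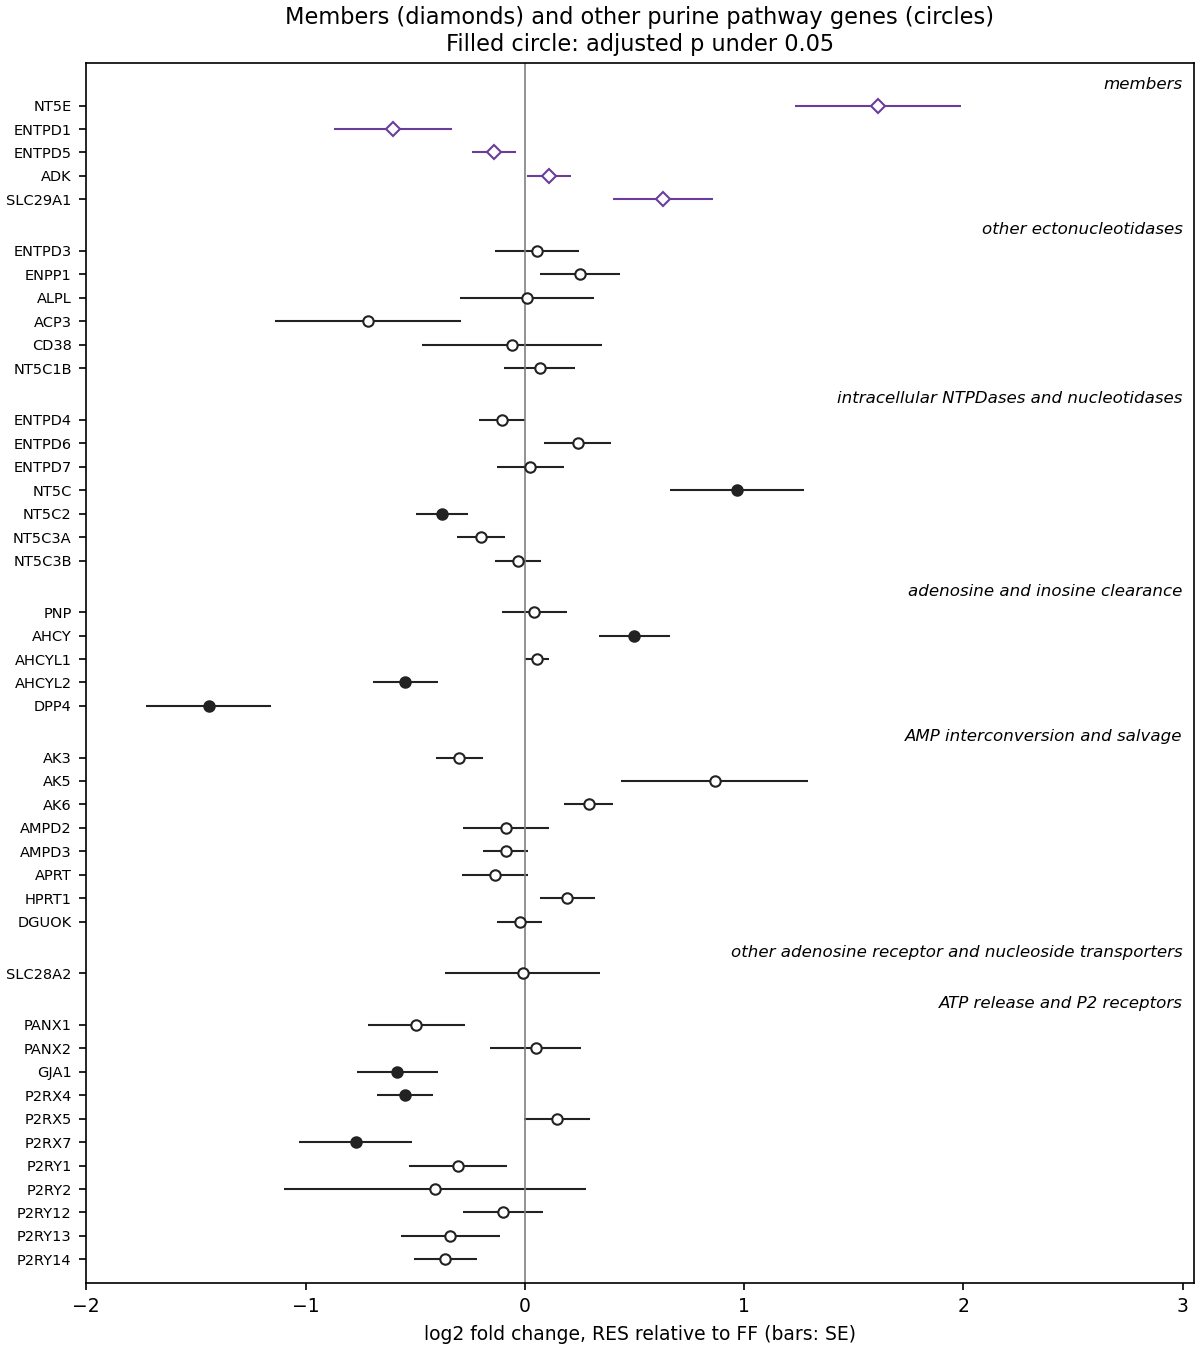
Log2 fold change of RES relative to FF (horizontal axis, bars: SE) for the 5 members tested (diamonds) and 38 other tested purine pathway genes (circles, filled at an adjusted p under 0.05). NT5E lies farthest to the right at 1.61 and DPP4 farthest to the left at -1.44, and 6 of the 8 filled circles are on the side lower in RES.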

How the data were processed

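One library per sow was analysed, 13 FF and 14 RES, grouped by the sample labels. The deposited files give raw counts for each Ensembl gene, which the authors made by cleaning reads, aligning them with HISAT2 2.2.1 to Sscrofa11.1, collapsing PCR copies with UMI-tools 1.1.4 and assigning read pairs to exons with featureCounts 1.6.2, per the submitters' processing notes and the study's methods. No strand option was set in the counting, so values of genes overlapping an antisense neighbour are uncertain. Total counts were 12299220 to 18120922 per library.

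Symbols came from a table pairing identifiers with names, and positions and sequences from RefSeq on the same build. Named genes with a mean count of at least 5 were tested with edgeR 4.0.16 (TMM, quasi-likelihood, R 4.3.3) with Benjamini-Hochberg adjustment over 11384 genes. Each SE was taken as the log2 fold change over the square root of its F statistic. Size factors came from DESeq2 1.42.0 over the 17467 identifiers, named or not, that averaged 5 counts or more. Correlations used 100000 two-sided permutations with scipy 1.17.1 and numpy 2.4.6, and the difference in r permuted diet labels of values standardized within diet. Motifs were searched in windows around gene starts.

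Alternatives were DESeq2's Wald test and size factors, upper-quartile factors, filterByExpr, no filter, all identifiers, a replicate block, the read quality group as a term, fits within quality groups, limma 3.58.1 voom with sample quality weights, and leaving out each library. The interaction with quality group was added after seeing the data. The study's RNA quality table gives its lowest RNA integrity number (RIN) to FF sow 10, while by the labels FF sow 9 was excluded for a low RIN, so the rows of FF sow 10 and its quality group are uncertain. The fits were tested on simulated data. Members and lists were chosen with earlier results of these data known. Named in the text are all members, every called gene and the most abundant tested gene of each pathway list, the 10 most and 5 least like NT5E, and its 3 nearest tested neighbours on each side. The 10 most and 5 least like SLC29A1 and ENTPD1, the called endothelial markers and the genes overlapping a receptor were added after their values were seen. INHBB and CYP19A1 are named because the study reports them.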

Additional observations from a re-analysis of the deposited data

How the results depend on the processing

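All 5 tested members kept the sign of their log2 fold change under every alternative. For NT5E this is a description only, since it was chosen for its rise in these same libraries. NT5E lay between 0.91 (lower quality group) and 2.13 (upper quality group), ENTPD1 between -0.74 and -0.48, ENTPD5 between -0.28 and -0.01, ADK between 0.03 and 0.20, and SLC29A1 between 0.17 and 1.06. SLC29A1 was called by DESeq2 (0.63), with the replicate block (0.71), in the upper quality group (1.06) and by voom with sample quality weights (0.82), so 1 of 4 members was called there and 0 in each of the other settings, single libraries left out aside. Leaving out 1 library gave 1.38 to 1.83 for NT5E, -0.89 to -0.49 for ENTPD1, -0.19 to -0.11 for ENTPD5, 0.08 to 0.15 for ADK, 0.55 to 0.78 for SLC29A1, and 0 to 1 members called.

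Of all genes, 1610 were called, against 1 in the lower quality group, 3193 by voom, and 1182 (without FF sow 6 or RES sow 1) to 2350 (without RES sow 7) with 1 library left out. The share of called genes higher in RES was 58.6%, and 51.1% with upper-quartile factors. Of the other pathway genes 8 were called, against 3 with the replicate block (DPP4, P2RX4 and P2RX7), 0 in the lower quality group and 3 to 11 with 1 library left out. The replicate numbers did not pair the sows, as correlations of deviations ran from -0.24 to 0.31 in 13 pairs with 1 pair over 0.1, and the block gave 1084 calls over all genes (9.52%).

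Correlations with NT5E changed sign for ENTPD1 in RES with rho (-0.48), on the log2 scale (-0.17) and in the upper (-0.04) and lower (-0.60) quality groups, for ENTPD1 in FF in the upper group (-0.08), for ENTPD5 in the lower group (0.04 in FF, 0.56 in RES), and for ADK in FF without the 2 farthest libraries (0.18) and in the upper group (0.08) and in RES in the lower group (-0.02). Without FF sow 10, r was -0.07 for SLC29A1, 0.20 for ENTPD5, 0.30 for ENTPD1 and -0.15 for ADK in FF. Of the 10 genes most like NT5E, 2 were shared on the count scale, 2 within FF and 1 within RES. With coding length 6 of 10 members kept their place in RES. The cause of these shifts was not tested. SLC29A2 and the 3 receptors had too few counts for a usable comparison. For ADORA2B, ADORA1, NT5E, ENTPD5 and SLC29A1 the part of the antisense overlap was not tested.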
